A study of Mus musculus with 8 samples.

Results

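The core circadian clock loop was examined in hearts of diabetic db/db mice and their db/m controls through 10 genes chosen by name: the activators Arntl (also called Bmal1), Npas2 and Clock, the period genes Per1, Per2 and Per3, the cryptochromes Cry1 and Cry2, and the Rev-erb receptors Nr1d1 and Nr1d2. Each had a single row among the 55573 genes of the count table, and all 10 passed the filter on low counts. RNA sequencing was done on hearts of male C57BLKS/J mice at 24 weeks of age, with 4 libraries of genotype db/m and 4 of genotype db/db, and 3 µg of total RNA went into each. The db mutation is a defect of the leptin receptor gene, present throughout the body and from birth. Homozygous db/db mice become obese and diabetic, and heterozygous db/m mice serve as their lean controls. No library comes from a mouse without the db allele, and no treatment is named. Whether the libraries come from different animals is not said in the labels. The p-values cover only the spread among these 8 libraries, and part of that spread may be technical. The hour at which each heart was taken is not given in the sources used here, and its part in the values below was not tested.

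The mammalian clock is a transcriptional loop present in most cells, heart muscle cells among them. BMAL1, the product of Arntl, pairs with CLOCK or NPAS2 and switches on genes that carry E-boxes, among them the Per, Cry and Rev-erb genes, and the PER and CRY proteins then block that same pair. The Rev-erb receptors close a further loop by repressing Arntl, Npas2 and Clock at ROR elements, where the ROR receptors activate. Because of this wiring, Arntl, Npas2 and Clock messages in mouse tissues crest toward dawn, with Cry1 near them. The Rev-erb genes and Per3 crest during the day, and Per1, Per2 and Cry2 later, toward dusk.

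Total counts per library ran from 19541757 to 22249911. The 7 heart muscle markers checked (Myh6, Myl2, Actc1, Tnnt2, Tnni3, Ryr2 and Pln) had between 2827 and 495142 counts in every library. The db/m replicates 1 and 3 stood apart. Replicate 3 was the lowest library in 5 of the 7 heart muscle markers, with Myl2 at 117 CPM against 593 to 999 elsewhere, Actc1 at 3796 against 8332 to 11404, Tnnt2 at 489 against 971 to 1513, Tnni3 at 417 against 1127 to 1396 and Pln at 775 against 1477 to 2069, while Myh6 and Ryr2 were highest there. Ucp1, which makes brown fat give off heat, reached 1765 and 8220 counts there and 0 to 2 elsewhere, and Adipoq, the adiponectin gene, 1082 and 2243 counts against 0 to 10. Bmp10, an atrial growth factor, reached 2334 and 74283 counts against 0 to 18, and Sln, the atrial calcium pump inhibitor sarcolipin, 4516 and 1589 against 0 to 83. The summed level of 6 atrial markers was 1632 and 3887 CPM in these libraries and 16.0 to 118 CPM in the others. That of 8 adipocyte markers was 656 and 1001 CPM against 336 to 644 CPM, a sum that Fabp4, also made by endothelial cells, dominated outside them. CPM are counts scaled by edgeR to a common library size with TMM factors. Fold changes of the clock genes are also given without these 2 libraries, and the part of the marker levels in the results was not tested. In bulk tissue, fewer cells of a type and less RNA per cell cannot be told apart.

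The comparison of db/db with db/m asked which heart transcripts differ with the diabetic genotype. The activators and most of the genes they switch on lay on opposite sides. Arntl, Npas2 and Clock had lower means in db/db, by 2.80-fold, 2.08-fold and 1.57-fold, and so did Cry1, by 1.22-fold. Per2 had a mean 3.32-fold higher, and Nr1d1, Per3, Nr1d2, Per1 and Cry2 lay 2.01-fold to 1.48-fold higher. None of the 10 passed edgeR's quasi-likelihood test with Benjamini-Hochberg adjustment over all genes, in which 1 of 17411 genes passed (0.00574%). The smallest adjusted p among them was that of Per2, 0.125, followed by Arntl, 0.276.

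Without adjustment, 8 of the 10 had p under 0.05 in edgeR, while 13.0% of all genes tested did. Of these, 3 were lower in db/db (Arntl, Npas2 and Clock), against 7.84% of all genes, and 5 were higher (Per2, Per3, Cry2, Nr1d1 and Nr1d2), against 5.12%. In 3 of the 10, Npas2, Clock and Per2, the 4 db/db values lay all above or all below the 4 db/m values, which held for 9.65% of all genes (5.04% higher and 4.61% lower). The median log2 fold change was 0.61 over the 10 genes and -0.02 over all genes tested. DESeq2 with its adjustment called Per2 (adjusted p = 3.54e-05) and Arntl (adjusted p = 0.0385), where it called 2.17% of all genes. Limma-voom with sample weights called Nr1d2 (adjusted p = 0.0279) and Nr1d1 (adjusted p = 0.0305), where it called 0.580% of all genes. Its weight for db/m replicate 3 was 0.12, against 0.94 to 2.09 for the other libraries, so this fit comes near to leaving that library out.

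**Figure D1:**
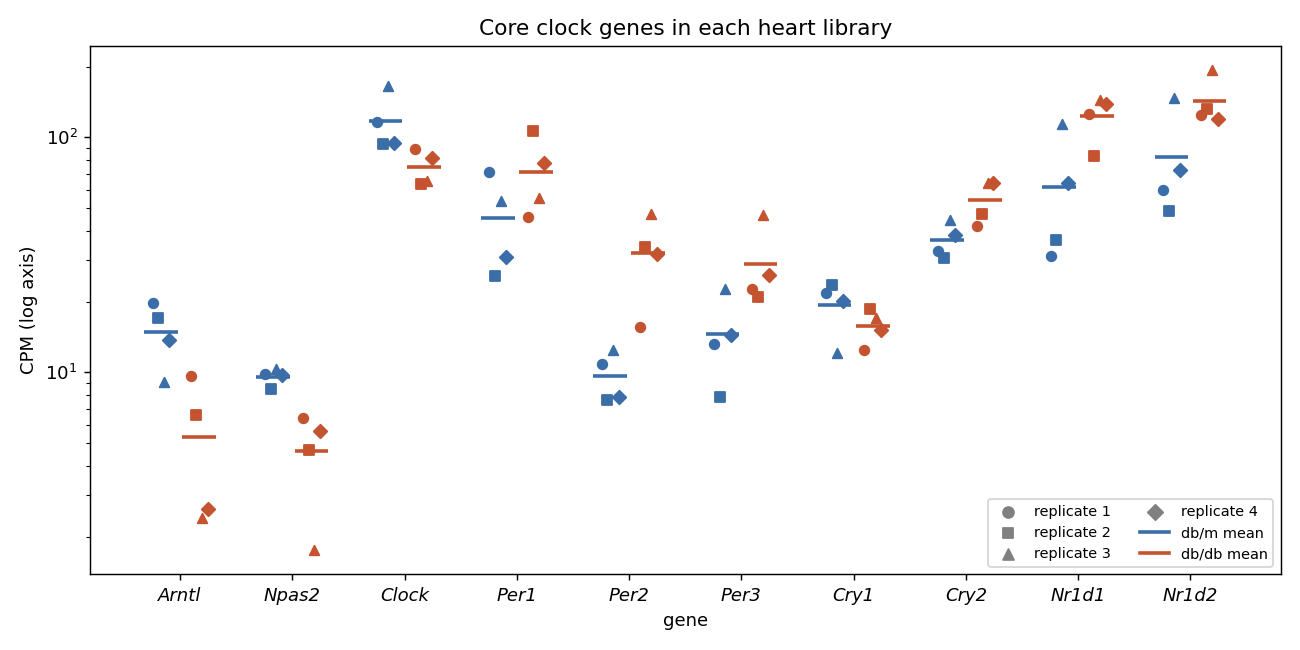
CPM of the 10 clock genes on a log axis, with a point for each library (marker shape gives the replicate number), blue for db/m and red for db/db, and bars at the group means (n = 4 each). Arntl, Npas2 and Clock means are lower and Per2, Per3, Nr1d1 and Nr1d2 means are higher in db/db, and only Npas2, Clock and Per2 have groups that do not overlap.

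Sequence motifs of the loop were looked up in promoter windows of RefSeq on GRCm38.p6, from 250 bases before to 50 bases after each start site, on both strands. They were the E-box CACGTG, its variant CACGTT, the D-box TTATGNAA bound by the DBP family and by NFIL3, and the ROR element, searched as ANNT followed at once by AGGTCA or GGGTCA. Windows were found for 9 of the 10 genes, all but Per2, and 6 of the 9 held a match to at least 1 motif, 9 matches in all, none sharing bases with another. By motif, 2 of the 9 held CACGTG, 3 CACGTT, 2 the D-box and 1 the ROR element. Among the 27025 genes with a window, 8.09% held CACGTG, 5.44% CACGTT, 3.99% the D-box and 1.89% the ROR element. The share of all genes with a match to at least 1 motif was not taken. A match describes the letters and says nothing of binding. The matching stretches are printed with the genes below, with the match in capitals, 5′ to 3′ on the strand of the gene.

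Arntl, which encodes the partner that every activating pair needs (ENSMUSG00000055116, chromosome 7, 113207465 to 113314126, mm10), had 19.7, 17.04, 9.10 and 13.7 CPM in db/m replicates 1 to 4. In db/db replicates 1 to 4 it reached 9.64, 6.57, 2.40 and 2.61 CPM. The last 2 libraries were far below all others, and the groups overlapped only through db/m replicate 3 and db/db replicate 1. The means were 14.9 ± 4.56 and 5.30 ± 3.47 CPM (SD, n = 4), a log2 fold change of -1.49 (SE 0.44, edgeR adjusted p = 0.276). Leaving out db/m replicates 1 and 3 gave -1.54. The opposite-strand gene Gm45355 shares 33 exon bases with Arntl and is listed at 0 counts in every library. The Arntl window with its start site at the second RefSeq position held a ROR element that begins 27 bases after that start.
Arntl ROR element, chr7:113207528-113207557: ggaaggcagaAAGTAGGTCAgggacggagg

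Npas2, which can stand in for CLOCK in the activating pair (ENSMUSG00000026077, chromosome 1, 39193731 to 39363236), had 9.85, 8.49, 10.3 and 9.74 CPM in db/m. In db/db it had 6.41, 4.69, 1.75 and 5.66 CPM. The db/m values were tightly grouped and all 4 db/db values lay below them, with db/db replicate 3 lowest. On the log2 scale the difference was -1.06 (SE 0.33, edgeR adjusted p = 0.296), and it was -0.99 with db/m replicates 1 and 3 left out.

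Clock (ENSMUSG00000029238, chromosome 5, 76209868 to 76304792), which encodes the histone acetyltransferase partner of BMAL1, had 116, 94.2, 165 and 94.5 CPM in db/m against 88.9, 63.4, 65.0 and 81.9 CPM in db/db. Its groups did not overlap, but db/m replicates 2 and 4 were close to db/db replicate 1. This gave a log2 fold change of -0.65 (SE 0.20, edgeR adjusted p = 0.296). The highest db/m value came from replicate 3, and without db/m replicate 3 the value was -0.44, and without db/m replicates 1 and 3 it was -0.34. Neither Npas2 nor Clock had a match to the motifs in its RefSeq windows.

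Per2, which encodes the scaffold of the repressor complex (ENSMUSG00000055866, chromosome 1, 91415982 to 91459324), differed most of the 10. It had 10.9, 7.61, 12.4 and 7.88 CPM in db/m against 15.6, 34.1, 47.3 and 32.0 CPM in db/db. All db/db values lay above all db/m values, with db/db replicate 1 close to the controls and replicates 2 to 4 well above. Its log2 fold change was 1.73 (SE 0.31, edgeR adjusted p = 0.125). In the order of p it was number 32 of the 17411 genes. The value was 2.05 without db/m replicates 1 and 3.

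Per3 (ENSMUSG00000028957, chromosome 4, 151003652 to 151044665), a period gene with a smaller part in keeping the rhythm, had 13.1, 7.86, 22.7 and 14.4 CPM in db/m against 22.6, 20.98, 46.6 and 25.9 CPM in db/db. The groups overlapped through db/m replicate 3, and db/db replicate 3 was the highest by far. The fitted log2 fold change was 0.998 (SE 0.34, edgeR adjusted p = 0.305), 0.67 without db/db replicate 3 (adjusted p = 0.486), and leaving out db/m replicates 1 and 3 gave 1.37. Its window held the D-box 2 times, beginning 205 and 158 bases before the start site, and the 250 bases before the start, which hold no annotated exon, are shown for that reason.
Per3 upstream region, chr4:151044666-151044915, minus strand: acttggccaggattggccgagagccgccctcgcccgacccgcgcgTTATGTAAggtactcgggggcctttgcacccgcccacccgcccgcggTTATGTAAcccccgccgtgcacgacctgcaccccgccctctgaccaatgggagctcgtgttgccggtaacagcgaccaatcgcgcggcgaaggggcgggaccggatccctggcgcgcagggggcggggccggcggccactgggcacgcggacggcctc

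Per1 (ENSMUSG00000020893, chromosome 11, 69095217 to 69109960), the period gene that also answers quickly to hormones and to cAMP signals, was the least regular of the 3. It had 71.1, 25.8, 53.7 and 30.9 CPM in db/m against 45.8, 107, 55.2 and 78.2 CPM in db/db. The groups overlapped widely, because db/m replicates 1 and 3 were above db/db replicate 1, and db/m replicate 1 was also above db/db replicate 3. For Per1 the log2 fold change was 0.66 (SE 0.35, edgeR adjusted p = 0.437), 1.33 without db/m replicates 1 and 3 (adjusted p = 0.299) and 0.40 without db/db replicate 2 (adjusted p = 0.717). One of its 2 windows held an E-box 166 bases and a D-box 24 bases before the start site.
Per1 E-box, chr11:69098771-69098800: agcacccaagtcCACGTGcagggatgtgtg
Per1 D-box, chr11:69098914-69098943: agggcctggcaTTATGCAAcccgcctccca

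The cryptochromes, which carry the main repressor activity of the loop, lay on opposite sides. Cry2 (ENSMUSG00000068742, chromosome 2, 92403646 to 92434043) had 32.8, 30.5, 44.5 and 38.6 CPM in db/m against 42.2, 47.2, 63.7 and 64.0 CPM in db/db. Only db/m replicate 3 reached into the db/db range. The opposite-strand gene D930015M05Rik shares 295 exon bases with Cry2 and had 0 to 13 counts. The log2 fold change of Cry2 was 0.57 (SE 0.18, edgeR adjusted p = 0.296), and 0.64 with db/m replicates 1 and 3 left out. Cry1 (ENSMUSG00000020038, chromosome 10, 85131700 to 85185064) had 21.8, 23.6, 12.04 and 20.1 CPM in db/m against 12.5, 18.5, 17.1 and 15.2 CPM in db/db. Here db/m replicate 3 was the lowest of all 8 libraries, while the other db/m values lay above every db/db value. The log2 fold change of Cry1 was -0.29 (SE 0.22, edgeR adjusted p = 0.550), -0.46 without db/m replicate 3 (adjusted p = 0.209), with -0.47 without both db/m replicates 1 and 3, but -0.18 when db/m replicate 2 and -0.19 when db/db replicate 1 was left out. The window of Cry1 held an E-box 60 bases and a CACGTT variant, read on the other strand, 79 bases before the start, and that of Cry2 a variant 166 bases before it.
Cry1 E-box, chr10:85185097-85185126: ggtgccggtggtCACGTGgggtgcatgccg
Cry1 variant, chr10:85185116-85185145: acacacttcagaAACGTGaggtgccggtgg
Cry2 variant, chr2:92434218-92434247: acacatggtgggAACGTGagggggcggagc

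Nr1d1, the gene of REV-ERB alpha (ENSMUSG00000020889, chromosome 11, 98767932 to 98775333), had 31.2, 36.7, 114 and 63.7 CPM in db/m against 126, 83.5, 145 and 139 CPM in db/db. Within db/m the spread was wide, and replicate 3 alone lay among the db/db values. The fitted log2 fold change was 1.004 (SE 0.38, edgeR adjusted p = 0.335), 1.49 without db/m replicate 3 (adjusted p = 0.102), and 1.29 when replicate 1 was left out too. Nr1d1 shares 263 exon bases, 8.55% of its exons, with Thra, the thyroid hormone receptor gene on the opposite strand, and whether counting used strand is not given in the sources used here. Thra itself averaged 103 ± 20.98 CPM in db/m against 97.3 ± 8.21 in db/db (SD, n = 4), a log2 difference of -0.08 (SE 0.15). The Nr1d1 window held a CACGTT variant, read on the other strand, 28 bases before the start.
Nr1d1 variant, chr11:98775388-98775417: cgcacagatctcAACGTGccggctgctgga

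Nr1d2, the gene of REV-ERB beta (ENSMUSG00000021775, chromosome 14, 18204054 to 18239127), had 59.6, 48.5, 148 and 73.0 CPM in db/m against 125, 133, 194 and 120 CPM in db/db. Again only db/m replicate 3 overlapped the other group. In edgeR the log2 fold change was 0.80 (SE 0.33, edgeR adjusted p = 0.356), 1.25 without db/m replicate 3 (adjusted p = 0.0329, a call in a fit where 0.600% of genes passed), while leaving out replicates 1 and 3 of db/m gave 1.22 (adjusted p = 0.128). Its value is uncertain, since the processed pseudogene AC170187.1 matches it at 96.1% over 1385 bases and held 4368 counts beside the 19042 of Nr1d2. With both counted together, an alternative chosen after seeing the data, it was 0.73 on the log2 scale (edgeR adjusted p = 0.383).

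**Figure D2:**
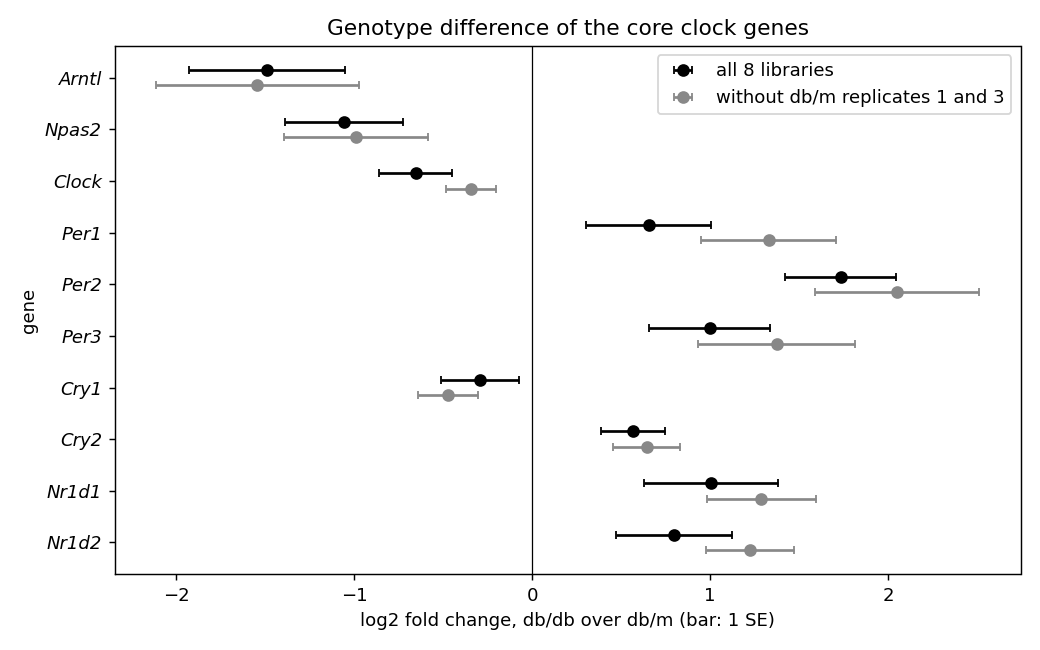
Log2 fold change of each clock gene, db/db over db/m, from edgeR, with a bar of 1 SE, for all 8 libraries (black) and without db/m replicates 1 and 3 (grey). The sign of all 10 is the same in both fits, Clock is nearer 0 in the second (-0.34 against -0.65) and Per1 farther from it (1.33 against 0.66).

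Without db/m replicates 1 and 3, all 10 genes had an unadjusted p under 0.05 in edgeR, where 10.7% of all genes did, and 0 passed after adjustment, where 0.256% of all genes did. The 2 remaining db/m values and the 4 db/db values did not overlap in any of the 10, which held for 21.4% of all genes. Leaving out any single library left 5 to 9 of the 10 with an unadjusted p under 0.05, where 8.69% to 16.2% of all genes had one, the fewest without db/db replicate 3. Per2, Arntl, Npas2, Clock and Cry2 kept theirs in each of these 8 fits.

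The libraries differed among themselves as well as by genotype. The db/m replicate 2 was the lowest of all 8 in Per1, Per2, Per3, Cry2 and Nr1d2. At the other end, db/db replicate 3 was the highest in Per2, Per3, Nr1d1 and Nr1d2 and the lowest in Arntl and Npas2. Among controls, db/m replicate 3 had the lowest Arntl and Cry1 and the highest Per2, Per3, Cry2, Nr1d1 and Nr1d2, yet also the highest Npas2 and Clock, so it was not nearer the db/db libraries in every gene. Among db/db libraries, replicate 1 had the highest Arntl, Npas2 and Clock and the lowest Per1, Per2, Cry1 and Cry2.

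**Figure D3:**
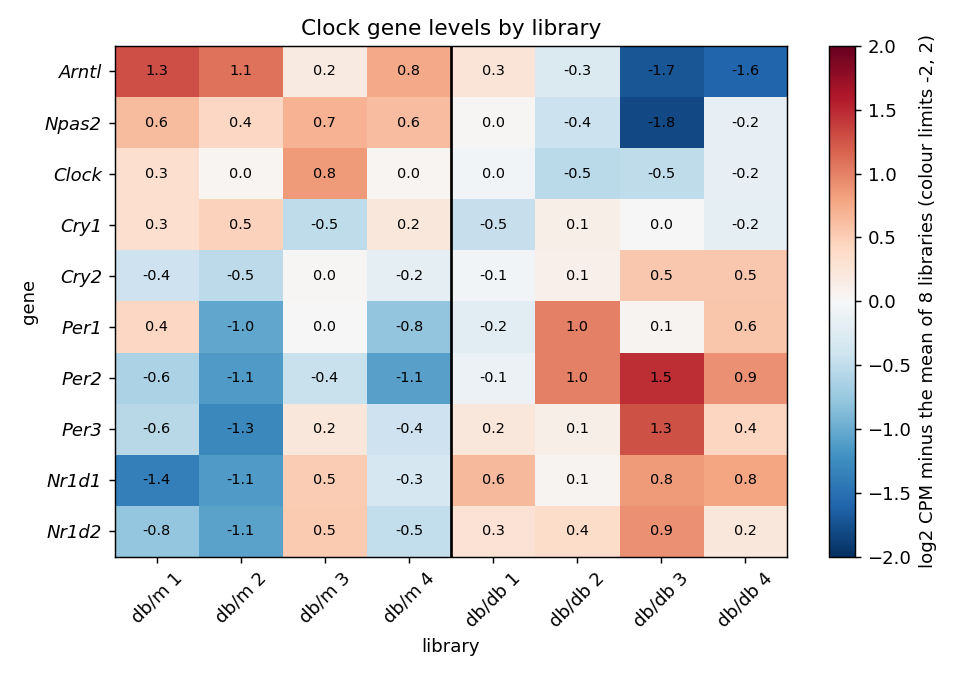
Log2 CPM of each clock gene in each library minus its mean over the 8 libraries, red above and blue below, with the value in each cell. Arntl, Npas2 and Clock are at or above 0 in the db/m libraries and mostly below it in db/db, while Per2 runs the other way, from -1.1 in db/m replicates 2 and 4 to 1.5 in db/db replicate 3.

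Differences between members within a library do not depend on its scaling. Arntl minus Nr1d1, on the log2 CPM scale, was -0.66, -1.10, -3.64 and -2.21 in db/m against -3.70, -3.65, -5.86 and -5.68 in db/db. Every db/db library lay below every db/m library, although db/m replicate 3, at -3.64, and db/db replicate 2, at -3.65, all but touched. Arntl minus Per2 was 0.85, 1.15, -0.44 and 0.79 in db/m against -0.69, -2.36, -4.25 and -3.56 in db/db, so that Arntl had the larger counts in 3 of 4 db/m libraries and Per2 in all 4 db/db libraries. Npas2 minus Nr1d1 ran from -3.45 to -1.65 in db/m and from -6.29 to -4.13 in db/db, again without overlap. Arntl minus Per3 had means of 0.07 ± 1.04 and -2.59 ± 1.40, with db/m replicate 3 at -1.31 below db/db replicate 1 at -1.22.

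The mean of the 3 activators minus the mean of the Per and Rev-erb genes ran from -0.94 to 0.30 in db/m and from -3.59 to -1.43 in db/db, a difference of -2.24 between the group means (-2.49 without db/m replicates 1 and 3). Arntl minus Clock differed by -1.03 between the group means and Cry1 minus Cry2 by -0.82, and the groups overlapped in both. The mean of the day genes Per3, Nr1d1 and Nr1d2 minus that of the dusk genes Per1, Per2 and Cry2 was 0.64 ± 0.55 in db/m against 0.70 ± 0.47 in db/db (SD, n = 4), and this difference of 0.06 changed sign in 4 of the 8 fits without a library (db/m replicates 1 and 2, db/db replicates 1 and 3). These differences are descriptions and carry no test, since the genes were chosen by name with results of these data known.

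**Figure D4:**
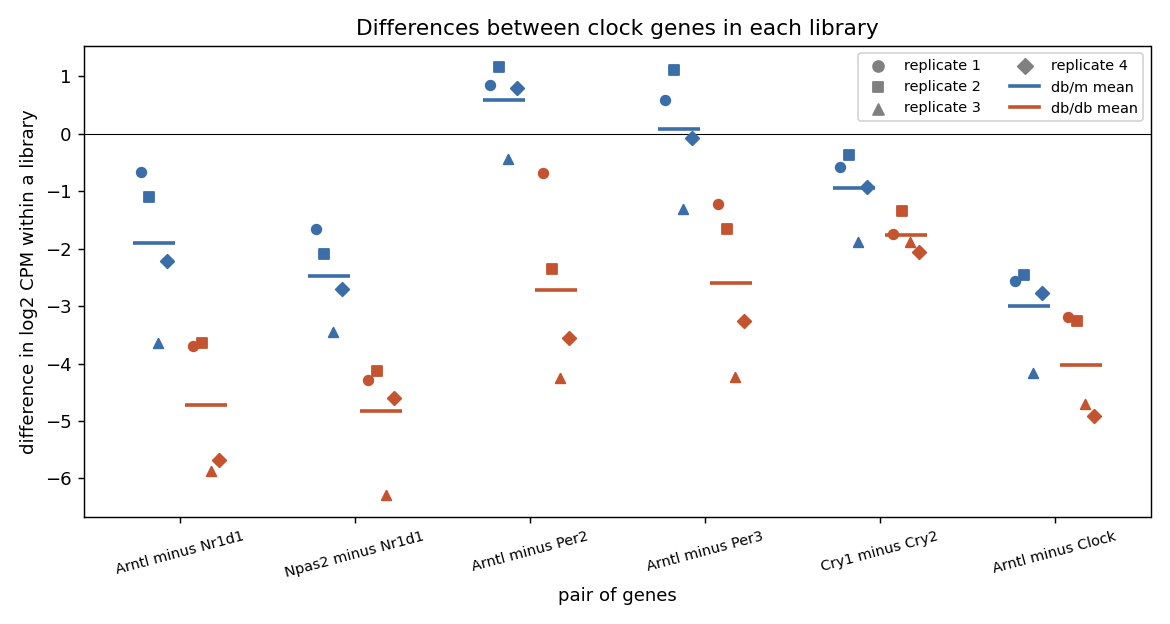
Difference in log2 CPM between pairs of clock genes within each library, blue for db/m and red for db/db, marker shape giving the replicate and bars the group means (n = 4 each). Arntl and Npas2 lie farther below Nr1d1 in all db/db libraries than in any db/m library, and Arntl minus Per2 has a mean of 0.59 in db/m against -2.71 in db/db.

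As a description of which transcripts follow the loop, the likeness of every gene to Arntl was taken as Pearson's r of log2 CPM over the 8 libraries, among 12294 other genes with a mean of at least 5 CPM. The libraries share their scaling and their division by genotype, and no test was made. Cry2 was the gene most opposite to Arntl, with r = -0.98 (Spearman's rho = -0.95), and it stayed near that value with genotype means removed (r = -0.96). Next came Gm20075 and Adap2 with r = -0.97 and -0.95, and then the clock outputs Tef and Bhlhe41 with r = -0.95 and -0.94. Among the other clock genes, Per2 held place 13 from that end (r = -0.90), Per3 place 28 (-0.86), Nr1d1 place 54 (-0.82) and Nr1d2 place 86 (-0.80). Their r was weaker with genotype means removed, at -0.73, -0.69, -0.61 and -0.56 in that order. Over the 15 pairs of an activator with a Per or Rev-erb gene, all r were negative, with a median of -0.66. Once genotype means were removed, that median was -0.07 and 5 of the 15 were positive.

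The 5 genes most like Arntl were Slc20a1, a phosphate transporter (r = 0.95), Bcl6, a transcriptional repressor (0.94), Agpat5, an acyltransferase of phospholipid synthesis (0.94), Dnajc21 (0.94) and Cd83 (0.93). Nfil3, the D-box repressor, was number 7 (r = 0.92) and Npas2 number 74 (0.80). Clock (0.54), Cry1 (0.41) and Per1 (-0.46) followed Arntl less closely. With genotype means removed, r with Arntl was 0.51 for Npas2, -0.11 for Clock and 0.18 for Cry1.

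**Figure D5:**
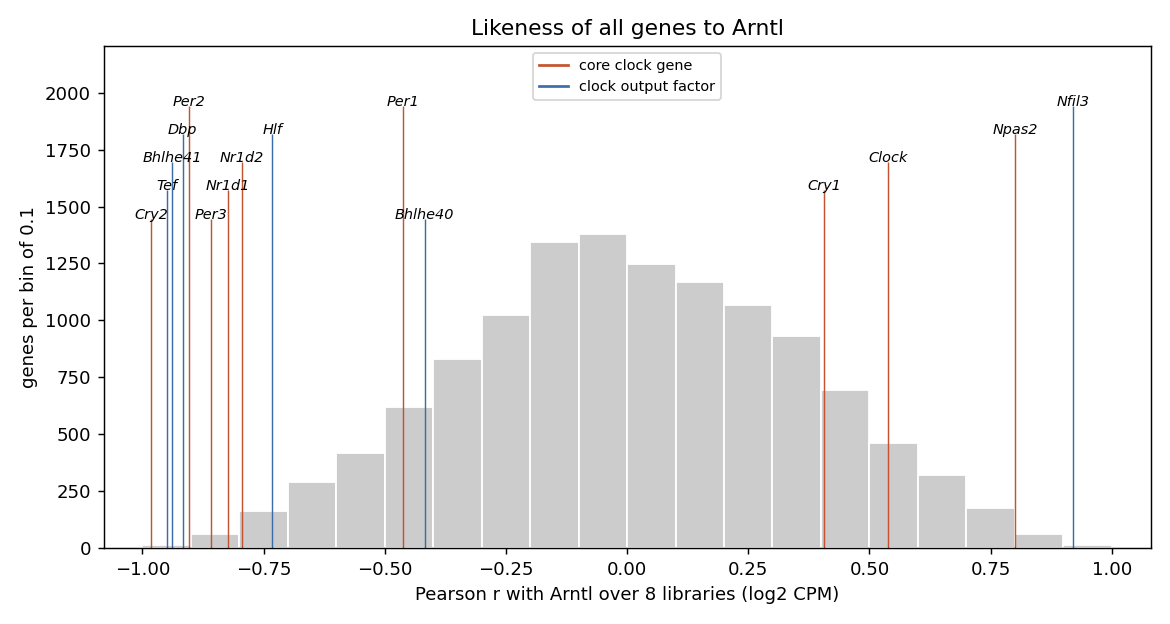
Number of genes by Pearson's r with Arntl over the 8 libraries, in bins of 0.1, with lines at the clock genes (red) and the clock output factors (blue). Cry2, Tef, Bhlhe41, Dbp and Per2 stand at the negative end, beyond -0.90, and Nfil3 and Npas2 at the positive end.

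Compared per kilobase of annotated exon, Nr1d1 had the highest mean of the 10 in both groups, at 19.97 ± 12.3 CPM per kilobase in db/m against 40.1 ± 8.98 in db/db (SD, n = 4), followed by Nr1d2 at 15.2 ± 8.27 and 26.4 ± 6.36. In db/m these 2 did not differ beyond their spread, which replicate 3 widened in both. The next levels in db/m, Clock at 8.57 ± 2.44, Per1 at 8.06 ± 3.74, Cry1 at 5.81 ± 1.53 and Cry2 at 5.79 ± 0.991, did not differ from their neighbours beyond the spread. The lowest in db/m were Npas2 at 2.01 ± 0.164, Arntl at 1.98 ± 0.606, Per2 at 1.65 ± 0.399 and Per3 at 1.51 ± 0.638, which overlapped. In db/db the low end held Npas2 at 0.966 ± 0.426 and Arntl at 0.705 ± 0.461, while Per2 stood at 5.50 ± 2.22, above Clock at 5.45 ± 0.918 by less than the spread. Exon length is that of all annotated transcripts merged, so levels are understated where the heart uses a short form.

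The output factors that the loop drives were read from the same fit. Of the 6 listed (Dbp, Tef, Hlf, Nfil3, Bhlhe40 and Bhlhe41), 0 passed edgeR after adjustment, and 4 had an unadjusted p under 0.05, 3 of them higher and 1 lower, against 5.12% and 7.84% of all genes. In 3 of the 6 every db/db value lay above every db/m value, which held for 5.04% of all genes. Dbp, a D-box activator that BMAL1 switches on, had 11.5, 6.87, 22.5 and 16.5 CPM in db/m against 55.0, 59.7, 140 and 90.0 CPM in db/db, which did not overlap (log2 fold change 2.59, SE 0.40, edgeR adjusted p = 0.102). Dbp was called by DESeq2 (adjusted p = 3.83e-08) and limma-voom (adjusted p = 0.0164), which called 2.17% and 0.580% of all genes. An edgeR fit with a block on replicate number called it too (2.61, adjusted p = 0.00836), 1 of 5 genes called in that fit. Tef, of the same family, had 152 ± 40.1 and 272 ± 78.2 CPM (0.84, SE 0.24) and Bhlhe41, an E-box repressor, 37.3 ± 7.98 and 66.8 ± 18.6 CPM (0.84, SE 0.23), both without overlap and both called by DESeq2 only (adjusted p = 0.0423 and 0.0362; limma-voom adjusted p = 0.0551 and 0.0731). Nfil3, which opposes the D-box activators, had 35.2 ± 11.2 and 19.97 ± 3.91 CPM (-0.82, SE 0.24, adjusted p = 0.271).

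With all 8 libraries, no common direction was seen in other regulators of the loop. Of 20 listed (ROR receptors, casein kinases, ubiquitin ligases, corepressors and others), 19 were tested and 0 passed edgeR after adjustment. An unadjusted p under 0.05 was held by 3, a share near the 13.0% of all genes. Signs were 9 positive and 10 negative, with a median log2 fold change of -0.01. Without db/m replicates 1 and 3, 12 were positive and 7 negative, with a median of 0.08. In that edgeR fit 4 were higher and 1 lower at an unadjusted p under 0.05. Of all genes, 10.7% had such a p there in either direction. Ciart, a repressor of the activating pair that is itself a clock target, averaged 1.15 ± 0.531 CPM in db/m against 5.001 ± 2.71 in db/db (2.12 on the log2 scale, SE 0.49, edgeR adjusted p = 0.186), with overlap through db/m replicate 1 at 1.93 and db/db replicate 1 at 1.56 CPM. DESeq2 called Ciart (adjusted p = 0.00258) and limma-voom did not (adjusted p = 0.189). Over all genes these fits called 2.17% and 0.580%. Hdac3, the deacetylase recruited by the Rev-erb receptors, had 23.3 ± 5.52 and 32.9 ± 2.88 CPM (0.50, SE 0.18), and Sfpq, a partner of the PER complex, 133 ± 16.5 and 106 ± 8.39 CPM (-0.33, SE 0.13), both without overlap between groups. Of the 19 tested, 1 was thus wholly higher and 1 wholly lower in db/db. Of all genes, 5.04% were wholly higher and 4.61% wholly lower, so these counts stand near the general share. Fbxl21, a ubiquitin ligase gene for the cryptochromes, was barely detected (-1.26, SE 0.59, adjusted p = 0.396), and without db/m replicate 3 it stood at -0.60. The ROR receptor gene Rora stood at -0.20 (SE 0.25), and its sign rested on db/m replicate 3, without which it was 0.16 (SE 0.12). Limma-voom, which gave that library little weight, put Rora at 0.17.

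Of 10 heart genes described elsewhere as under clock control, 0 passed edgeR after adjustment and 4 had an unadjusted p under 0.05, all higher in db/db and all without overlap, against 5.12% of all genes higher at that p and 5.04% wholly above the controls. They were Tcap, a Z-disc protein, with 401 ± 148 and 1297 ± 139 CPM (log2 fold change 1.70, SE 0.27, adjusted p = 0.102), Usp2, a deubiquitinase of clock proteins, with 74.6 ± 5.04 and 122 ± 18.6 CPM (0.71, SE 0.14, adjusted p = 0.136), the transcription factor Klf15 with 46.0 ± 7.43 and 65.8 ± 4.83 CPM (0.52, SE 0.14) and Nampt, the enzyme of NAD salvage, with 199 ± 21.9 and 257 ± 16.3 CPM (0.37, SE 0.13). DESeq2 called Tcap, Usp2 and Klf15 (adjusted p = 1.01e-06, 0.000581 and 0.0389), and so did limma-voom (adjusted p = 0.00656, 0.0336 and 0.0310). Of all genes, DESeq2 called 2.17% and limma-voom 0.580%. When db/m replicates 1 and 3 were left out, Tcap (1.41, adjusted p = 0.00387) and Klf15 (0.72, adjusted p = 0.0348) passed edgeR, where 0.256% of all genes did. In that fit 6 of the 10 had an unadjusted p under 0.05. Of those 6, 5 were higher and 1 was lower (Dgat2, a triglyceride synthesis enzyme, -0.30), where 10.7% of all genes had such a p in either direction.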

How the data were processed

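The authors deposited whole-number counts per Ensembl gene for each library, not normalised, per the file headers and values. The deposited table's other column gives merged exon length. The build was mm10, as the submitters' processing notes have it. Aligner, counter, annotation and strand use: not given in the sources used here. All 8 single files held the same counts as the series table. Symbols came from GENCODE M21 (GRCm38, also called mm10) for 55480 of 55573 identifiers.

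The test of the counts was that of edgeR 4.0.16 (R 4.3.3): filterByExpr (minimum count 10, total 15), TMM factors, robust quasi-likelihood F test on genotype, two-sided, Benjamini-Hochberg adjustment over 17411 genes at 0.05. SEs were derived from the test, and log2 CPM used a prior count of 2. DESeq2 1.42.0, limma 3.58.1, other normalisations and filters, a replicate block and leaving out libraries were alternatives. The edgeR, DESeq2 and limma-voom fits were tested on simulated data. The simulation gave every gene the same dispersion and set no library apart, so it does not cover that feature of these data. Near-identical copies were sought with BLAST 2.17.0 at 95% identity over at least 100 bases. The clock genes and lists were chosen with earlier results of these data known. Named genes were the 10 clock genes, up to 4 members of each other list by edgeR p, the 5 genes most like and the 5 most opposite to Arntl, exon-overlapping genes and markers of the libraries that stood apart; Hlf, Bhlhe40, Rora, Dgat2, heart markers, Fabp4 and AC170187.1 were named in addition, after their values were seen. Counting error is included in the spread between libraries.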

Additional observations from a re-analysis of the deposited data

How the results depend on the processing

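The sign of each of the 10 clock genes was the same in all 17 alternatives run. Clock genes passing adjustment numbered 0 with all libraries in edgeR, 2 by DESeq2, 2 by limma-voom, and 0 to 1 when a single library was left out. Genes passing over the whole table numbered 1 in edgeR, 27 with no low-count filter, 377 by DESeq2, 101 by limma-voom, 46 without db/m replicates 1 and 3, and 0 to 106 when a single library was left out. The replicate block gave 5 genes, Dbp among them. Correlations of same-numbered libraries over all genes tested ran from -0.09 to 0.06, and those of differently numbered libraries from -0.15 to 0.18. Such correlations cannot show whether the clock genes pair by number, and the labels state no pairing. With the block the SE was 0.26 for Arntl, 0.16 for Per3 and 0.18 for Dbp, against 0.44, 0.34 and 0.40 without it. It rose for Per1 (0.35 to 0.43), Npas2 (0.33 to 0.35) and Cry1 (0.22 to 0.23). The day minus dusk difference turned from 0.06 to between -0.16 and -0.02 in 4 of the fits that leave out a library, with values over all 8 such fits from -0.16 to 0.26. The cause of these moves was not tested. Arntl and Npas2 had the lowest counts of the 10 clock genes, with 49 and 38 in their lowest libraries.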
